A study of Mus musculus with 30 samples.

Results

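The 8 genes described here encode N-BAR proteins, namely the amphiphysins and their relatives (*Amph*, *Bin1*, *Bin2* and *Bin3*) and the endophilins (*Sh3gl1*, *Sh3gl2*, *Sh3glb1* and *Sh3glb2*). They were chosen by name, and each matched 1 of the 47643 genes of the expression table. The measurements ask which of these paralogs microglia express, and whether the level of any other member differs in mice whose microglia have lost *Bin1*.

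A BAR domain is a curved dimer that binds and bends membranes, and in N-BAR proteins a helix at the N-terminus also inserts into the lipid layer. Amphiphysin and the endophilins of the A class carry an SH3 domain that recruits dynamin and synaptojanin to the necks of forming vesicles, and the endophilins of the B class work on the membranes of the Golgi, autophagosomes and mitochondria. *Bin1* is a risk locus for late-onset Alzheimer's disease and is expressed in microglia, the resident macrophages of the brain.

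The data are 30 RNA-seq libraries of CD11b+ CD45med cells sorted from the brains of 3 month-old mice, taken from Bin1flox (B6.129S6-Bin1tm2Gcp/J) and Cx3Cr1-Cre strains. Homo mice (5 males, 5 females) were Bin1 flox/flox with Cx3Cr1-Cre, Het mice (6 males, 5 females) were Bin1 wt/flox with Cx3Cr1-Cre, and WT mice (5 males, 4 females) were, by the legend of the study, Bin1 wt/flox without Cre. All 3 genotypes thus carried a floxed *Bin1* copy, and Cre and the loss of the first copy came together. Cre stood in the *Cx3cr1* gene, which is active in microglia and in other myeloid cells. The protocol filed with the samples instead describes treated cultures of pup microglia, and which description holds was not tested.

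Values are FPKM, fragments per length of transcript and per number of mapped fragments, so that levels of different genes can be compared per length. Read totals are unknown, and the depth of a library relative to the median one, read from the steps between low values, was 0.669 to 1.41. Microglial genes were high in every library, with *P2ry12* at 3509 to 5359 FPKM and *Tmem119* at 1424 to 2581 FPKM. Over the 30 libraries, 4 endothelial genes summed to 6.96 to 15.4 FPKM, of which *Pecam1* was 6.64 to 14.9 FPKM while *Cldn5* was at 0 in 27 libraries. The sums were 2.37 to 21.7 FPKM for 8 neuronal, 23.4 to 142 FPKM for 6 oligodendrocyte, 64.9 to 117 FPKM for 6 astrocyte, 10.8 to 34.2 FPKM for 5 monocyte and macrophage and 0 to 343 FPKM for 6 neutrophil genes. Of the astrocyte genes, *Slc1a3* was at 63.9 to 112 FPKM, while *Gfap* reached at most 2.45 FPKM. The 6 mice with the lowest numbers on their labels (called early here) comprised 3 male Homo, 2 male Het and 1 female WT mouse, and the other 24 are called late; the labels give no date for either range. The Het libraries Het-F-0206 and Het-M-0199 stood apart from the other Het libraries, with 42.7 and 51.8 FPKM of *Bin1*, and results on *Bin1* in Het mice are given with and without them. *Cx3cr1* was at 13.9 FPKM in Het-F-0206, against 610.0 to 1243 FPKM over the Het libraries left without both of these.

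Microglia of WT mice expressed 6 of the 8 members well above 1 FPKM, and *Bin2* and *Bin1* of the amphiphysin branch led the order. *Bin2*, which has no SH3 domain and is known from blood cells, was the most abundant, with 339 FPKM in the lowest, 377 FPKM in the median and 422 FPKM in the highest of the 9 WT libraries. *Bin1* followed with 230.3, 252 and 290 FPKM. These ranges did not overlap, and *Bin2* was above *Bin1* in 9 of 9 libraries, at a median ratio of 1.49.

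Among the endophilins, those that are found in many tissues were the ones measured at high levels. *Sh3glb1* (endophilin B1, also known as Bif-1) had 133, 145 and 156 FPKM in the lowest, median and highest WT library. *Sh3gl1* (endophilin A2) had 54.2, 60.2 and 68.8 FPKM. Neither range overlapped that of the next gene in the order. *Sh3glb2* (endophilin B2) and *Bin3*, a BAR protein without an SH3 domain, had medians of 24.9 and 24.5 FPKM, and their ranges overlapped, *Sh3glb2* being the higher in 6 of 9 libraries.

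The members known for their role at nerve terminals were close to the limit of detection. *Sh3gl2* (endophilin A1) ranged from 0 to 0.474 FPKM over the WT libraries, with a median of 0.239 FPKM. *Amph* (amphiphysin 1) ranged from 0 to 0.120 FPKM, with a median of 0.0317 FPKM, and was at 0 in 3 of 9 libraries. Of the 20 nonzero *Amph* values over all 30 libraries, 19 lay within 0.05 of a whole multiple of the smallest step, which was 0.0315 FPKM at the median depth and is the worth of a single fragment. These values correspond to 1 to 12 fragments, and 3 such steps, the level that a count of 0 allows, amount to 0.0946 FPKM for *Amph*. Among the 17300 genes with a median above 0 in WT libraries, *Bin2* stood at percentile 99.3, *Bin1* at 98.8, *Sh3glb1* at 97.6 and *Sh3gl1* at 92.5, while *Sh3gl2* stood at 19.9 and *Amph* at 3.28.

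**Figure D1:**
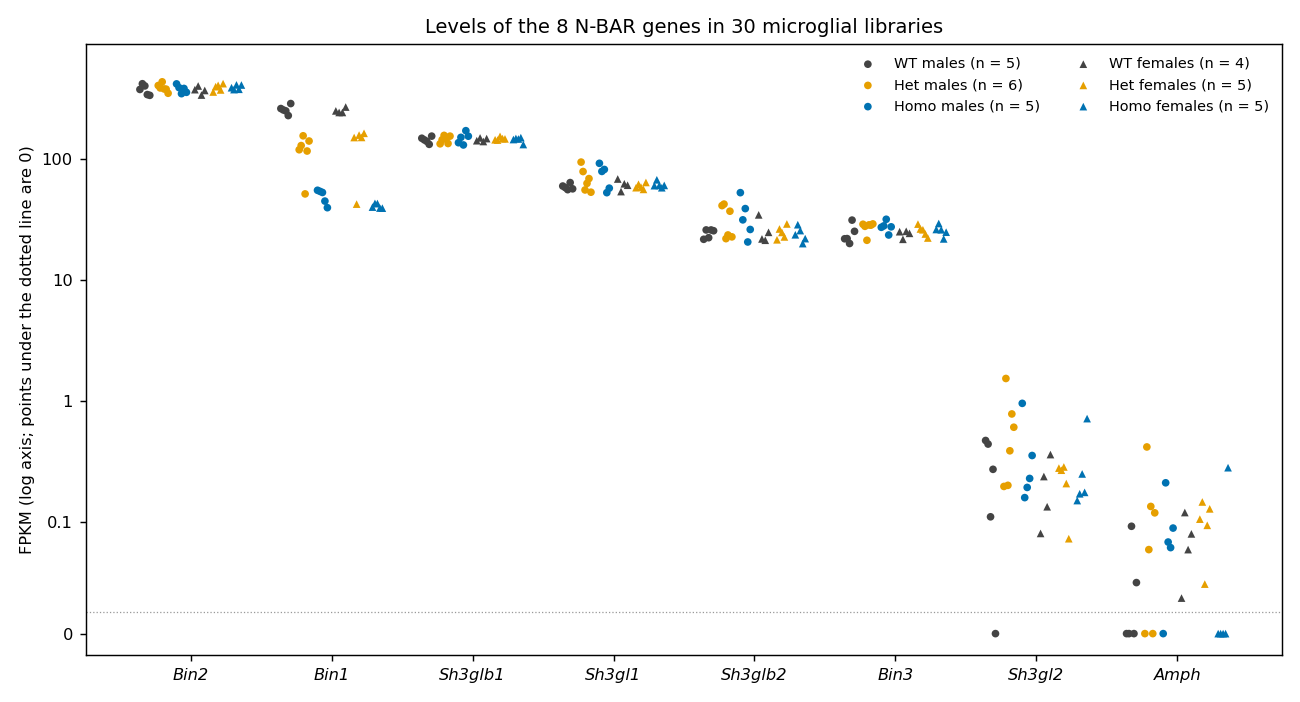
FPKM of each N-BAR gene (log axis) in every library, with a point for each library, circles for males, triangles for females and colour for genotype; points under the dotted line are 0. *Bin1* steps down from WT over Het to Homo, with 1 Het library of each sex among the Homo values, whereas *Bin2* and *Sh3glb1* lie in the same band in all 6 groups and *Sh3gl2* and *Amph* reach at most 1.54 and 0.419 FPKM.

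The highest *Amph* values came from the libraries with the highest neuronal genes. *Amph* was highest in Het-M-0108 (0.419 FPKM) and Homo-F-0238 (0.282 FPKM), where the 8 neuronal genes summed to 21.7 and 21.3 FPKM. *Sh3gl2* was at 1.54 and 0.719 FPKM in these libraries, and *Sh3gl3* (endophilin A3, a neuronal endophilin that is not among the 8 genes) at 0.676 and 0.764 FPKM. The neuronal sum was at most 8.32 FPKM in the other 28 libraries, among them Homo-M-0093 (4 FPKM) with 0.962 FPKM of *Sh3gl2*, and its part in these values was not tested.

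*Bin1* fell in both sexes of Homo mice. In males, its FPKM was 263, 256, 252, 230.3 and 290 in the WT libraries and 55.6, 54.4, 53.3, 45.2 and 39.9 in the Homo libraries. In females, it was 252, 244, 244 and 271 in WT and 40.3, 43.3, 43.2, 39.6 and 39.5 in Homo. The highest Homo value, 55.6 FPKM, was far below the lowest WT value, 230.3 FPKM, and the groups did not overlap in either sex. On the log2(FPKM + 0.1) scale, with the libraries scaled to each other and compared by limma, the change was -2.47 ± 0.26 (SE) in males (adjusted p = 1.66e-06) and -2.62 ± 0.28 in females (adjusted p = 1.62e-06). A gene was called when its adjusted p was below 0.05 and its fold change above 1.5, which held for 1.81% of the 16897 genes tested in Homo males and for 0.071% in Homo females. With the range of mouse numbers, early or late, as a covariate, 35 genes were called in Homo males in place of 306, and 9 among the late mice alone. The late males were 2 Homo, 5 WT and 4 Het mice. No WT male was early, so that genotype and number range are partly confounded in males. In females the counts were 18 and 15, in place of 12. The exact permutation test on FPKM, 2-sided and unadjusted, gave p = 0.00794 in males (n = 5 and 5) and p = 0.0159 in females (n = 5 and 4), the smallest that these group sizes allow. The remaining *Bin1* level, 0.172 times WT for the mean of both sexes on the scaled values, is a gene-level FPKM that also counts transcripts without the floxed part, and in sorted cells fewer cells with the transcript and less of it in each cell cannot be told apart.

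*Bin1* in Het mice lay between WT and Homo. Male Het libraries had 51.8, 125 and 157 FPKM in the lowest, median and highest of 6, and female Het libraries had 152, 42.7, 159, 152 and 164 FPKM. Against WT, the log2 change by limma was -1.26 ± 0.25 in males (adjusted p = 0.0211), where 0.154% of genes were called, and -1.07 ± 0.28 in females (adjusted p = 0.163), where 0.13% were. Without Het-F-0206 and Het-M-0199, the changes were -1.05 in males (adjusted p = 6.1e-07) and -0.69 in females (adjusted p = 0.00363), and *Bin1* was called in both. Homo against Het gave -1.21 ± 0.25 in males (adjusted p = 0.624), a contrast in which limma called no gene (0% of genes; 651 had an unadjusted p below 0.05), and -1.55 ± 0.26 in females (adjusted p = 0.0145), where 0.0118% were called. Without the 2 libraries the male value was -1.42 (adjusted p = 1.07e-09) and the female value -1.93 (adjusted p = 2.52e-12). With single libraries left out in turn, the call in Het males held in 6 of 11 fits and the call of Homo against Het females in 1 of 10, that without Het-F-0206. Between WT females and WT males, where 0.0473% of genes were called, *Bin1* differed by -0.02 (adjusted p = 1), with a 95% interval of -0.58 to 0.54.

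None of the other 6 members that could be tested was called higher or lower in Homo mice of either sex by limma, and none had an unadjusted p below 0.05. Of all genes tested, 1.81% were called in males and 0.071% in females, and 22.5% and 3.49% had an unadjusted p below 0.05, so that few or no calls among 6 genes say little about the members. The 6 genes were also without a call or such a p in both comparisons of Het with WT and in both of Homo with Het. Over all genes tested, 0.154% were called in Het males and 0.13% in Het females against WT, and 14.2% and 3.95% had such a p. For Homo against Het, 0% were called in males and 0.0118% in females, and 3.85% and 2.06% had such a p. The members are taken below by branch.

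*Bin2*, the most abundant member, had 379, 422, 405, 343 and 339 FPKM in WT males and 421, 392, 349.6, 386 and 359 FPKM in Homo males. It had 377, 404, 340.4 and 371 FPKM in WT females and 391, 378, 413, 380.0 and 412 FPKM in Homo females. The groups overlapped in both sexes. The log2 change was -0.07 ± 0.09 in males (adjusted p = 0.706) and 0.08 ± 0.10 in females (adjusted p = 1), and the male value turned to 0.02 on FPKM without scaling and to 0.01 after quantile normalization. For the mean of both sexes, a contrast in which 0.515% of genes were called, it was 0.01 with a 95% interval of -0.13 to 0.15, which corresponds to between 0.911 and 1.11 times the WT level. In Het mice *Bin2* was at 352 to 438 FPKM in males and 361 to 423 FPKM in females.

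*Bin3* had a mean of 24.3 ± 4.46 FPKM (SD, n = 5) in WT males and 27.8 ± 2.94 FPKM (n = 5) in Homo males. In females the means were 24.2 ± 1.66 FPKM (n = 4) and 25.8 ± 2.70 FPKM (n = 5). The values overlapped, and the log2 change over both sexes was 0.10 ± 0.07 (adjusted p = 0.514; between 0.972 and 1.19 times WT). *Amph* was below the mean of 0.1 FPKM that was set for the limma fit. It was at 0 in 4 of 5 Homo female libraries and in 1 of 5 Homo male libraries, and the exact permutation test gave p = 0.167 in males (n = 5 and 5) and p = 0.841 in females (n = 5 and 4), so that no difference was detectable at this depth.

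Of the B class, *Sh3glb1* had 150, 145, 141, 133 and 156 FPKM in WT males and 137, 152, 132, 173 and 156 FPKM in Homo males. In females it had 143, 151, 141 and 149 FPKM in WT and 146, 149, 147, 151 and 133 FPKM in Homo. Homo males spread on both sides of the WT range. The log2 change was -0.04 ± 0.10 in males (adjusted p = 0.849) and -0.01 ± 0.10 in females (adjusted p = 1), and for the mean of both sexes the interval ran from 0.889 to 1.09 times WT. The male sign depended on the scaling, since FPKM without scaling gave 0.04.

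*Sh3gl1* and *Sh3glb2* had the highest male Homo means relative to WT among the members above 1 FPKM. *Sh3gl1* had 60.2, 58.5, 56.2, 64.3 and 57.1 FPKM in WT males and 92.8, 79.5, 82.6, 53.1 and 57.8 FPKM in Homo males. *Sh3glb2* had 21.8, 26.1, 22.5, 26.1 and 25.7 FPKM in WT males and 53.1, 31.6, 39.2, 20.8 and 26.3 FPKM in Homo males. In both cases 3 Homo males, the early ones, lay above all WT males, and the other 2, the late ones, lay in or near the WT range. The log2 change was 0.19 ± 0.10 for *Sh3gl1* (adjusted p = 0.269) and 0.33 ± 0.17 for *Sh3glb2* (adjusted p = 0.249). In females, where all 5 Homo mice were late, it was -0.0008 ± 0.108 for *Sh3gl1* and -0.08 ± 0.18 for *Sh3glb2* (adjusted p = 1 for each).

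Among the late mice alone, the male change was -0.09 for *Sh3gl1* and -0.06 for *Sh3glb2*, and a fit that took the number range as a covariate gave -0.03 and -0.02. The difference between the sexes in the response to the loss of *Bin1* was 0.19 ± 0.15 for *Sh3gl1* (adjusted p = 0.672) and 0.41 ± 0.25 for *Sh3glb2* (adjusted p = 0.593), in a contrast in which limma called no gene (0% of genes; 1569 had an unadjusted p below 0.05). With the number range as a covariate, these differences were -0.12 and -0.09.

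**Figure D2:**
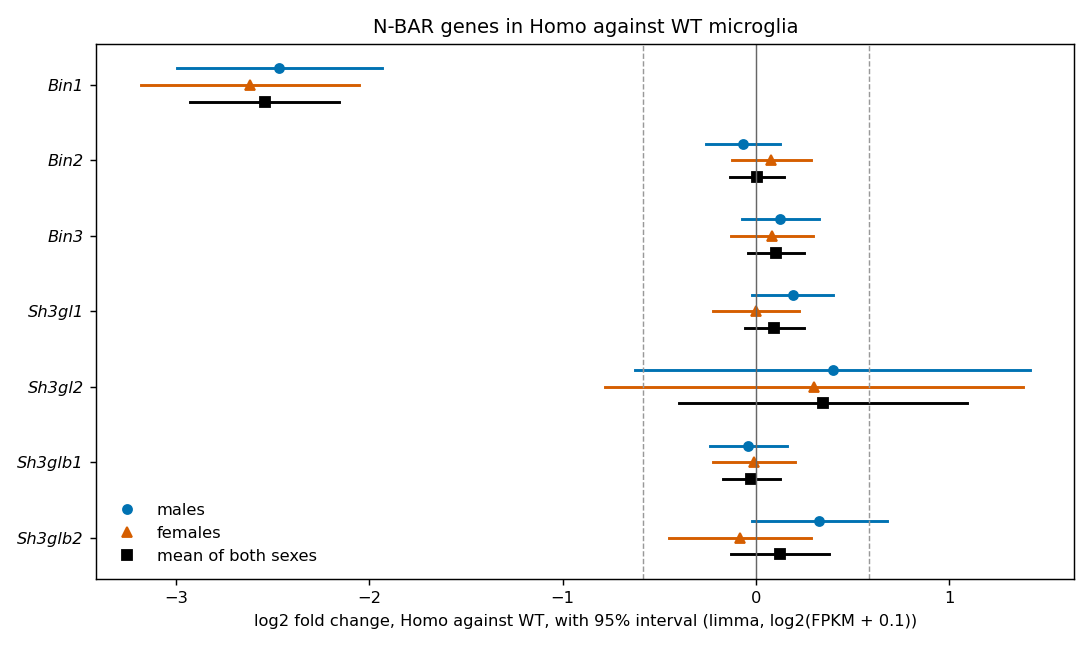
log2 fold change of the 7 tested members in Homo against WT microglia with its 95% interval, for males (circles), females (triangles) and the mean of both sexes (squares); dashed lines mark a 1.5-fold change. *Bin1* lies below -2, and the intervals of the mean of both sexes for *Bin2*, *Bin3*, *Sh3gl1*, *Sh3glb1* and *Sh3glb2* lie between the dashed lines, whereas that of *Sh3gl2* reaches beyond the upper line.

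*Sh3gl2*, at a mean of 0.260 ± 0.206 FPKM (SD, n = 5) in WT males and 0.380 ± 0.333 FPKM (n = 5) in Homo males, could not be bounded closely. Its log2 change over both sexes was 0.35 ± 0.36 (adjusted p = 0.685), and the interval reached from 0.760 to 2.13 times WT. In male Het mice it had 0.198, 0.50 and 1.54 FPKM in the lowest, median and highest library, and a log2 change of 0.93 ± 0.48 (adjusted p = 0.374), or 0.98 without Het-F-0206 and Het-M-0199 (adjusted p = 0.329).

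*Sh3gl1* and *Sh3glb2* differed between early and late mouse numbers, and they did so together. The 7 libraries with the highest *Sh3gl1* were also the 7 with the highest *Sh3glb2*, and comprised all 6 early libraries and Het-M-0203. *Sh3gl1* was at 68.8 to 95 FPKM in the early libraries and 53.1 to 69.4 FPKM in the late ones. *Sh3glb2* was at 31.6 to 53.1 and 20.1 to 37.3 FPKM. The early WT female, at 68.8 and 34.8 FPKM, was the highest of the WT libraries for both genes.

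In the fit with genotype and sex as groups and the number range as a covariate, early libraries had 0.36 ± 0.06 more *Sh3gl1* on the log2 scale (adjusted p = 0.000216) and 0.59 ± 0.10 more *Sh3glb2* (adjusted p = 0.000412), a 1.28-fold and a 1.5-fold difference. *Sh3glb1* was lower in early libraries, by -0.25 ± 0.07 (adjusted p = 0.00884). Over all genes, 7.72% were called between the ranges, *Sh3glb2* among them, whereas *Sh3gl1* and *Sh3glb1* passed on p alone. *Bin1* (0.09 ± 0.23), *Bin2* (-0.08 ± 0.08), *Bin3* (-0.003 ± 0.084) and *Sh3gl2* (-0.10 ± 0.44) did not pass the test (adjusted p of 0.458 or more for each).

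Other quantities differed in their medians between the number ranges, with values that overlapped. The sum of 10 microglial genes had a median of 19927 FPKM (17709 to 25389) in the early and 24580 FPKM (20475 to 25486) in the late libraries. The factor by which a library was scaled was 1.01 to 1.15 in the early and 0.944 to 1.10 in the late ones. The early WT female, WT-F-0122, had the highest early sum, 25389 FPKM, and a factor of 1.01. Het-M-0203, the late library among those with the highest *Sh3gl1* and *Sh3glb2*, had the lowest late sum, 20475 FPKM, and the highest late factor, 1.10. The sum of 6 oligodendrocyte genes had a median of 56.1 against 32.9 FPKM. That of 6 astrocyte genes, most of it *Slc1a3* (63.9 to 112 FPKM over all libraries), had a median of 94.5 against 80.4 FPKM. The part of these quantities in the endophilin levels was not tested. Within male Homo mice, *Bin1* itself was at 53.3 to 55.6 FPKM in the 3 early and 39.9 and 45.2 FPKM in the 2 late libraries.

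**Figure D3:**
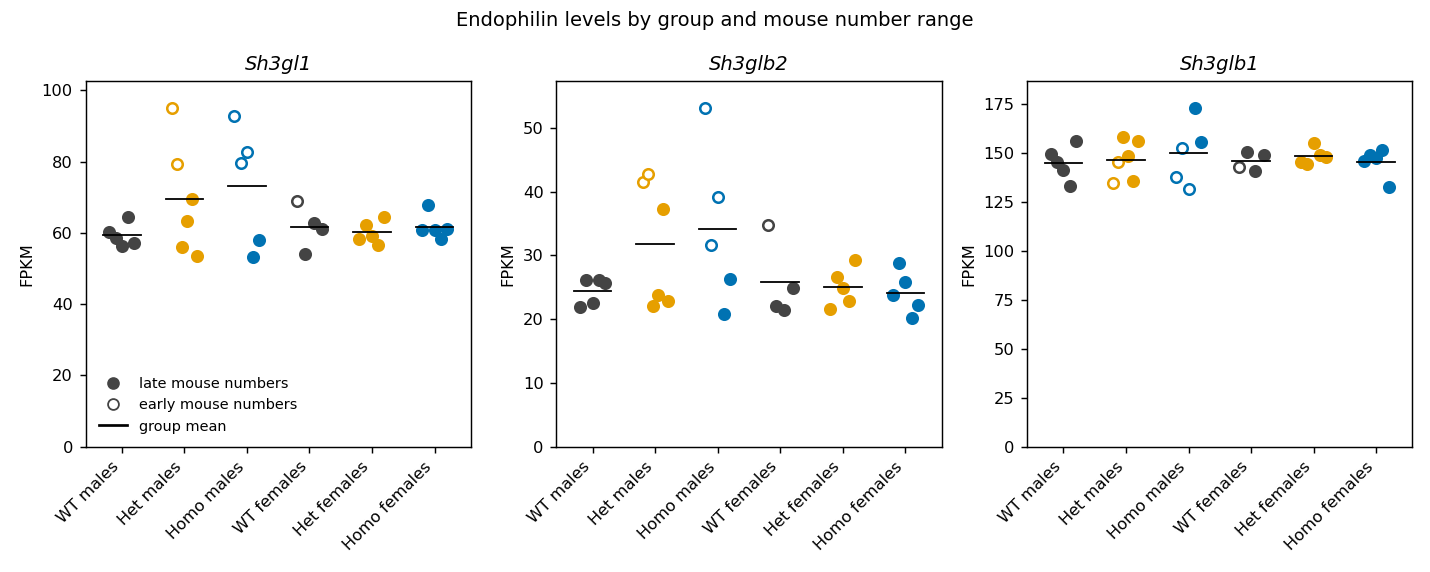
FPKM of *Sh3gl1*, *Sh3glb2* and *Sh3glb1* by group, with a point for each library (open for early, filled for late mouse numbers) and a line for the group mean. The open points of *Sh3gl1* and *Sh3glb2* lie at the top of their groups, from 68.8 and 31.6 FPKM upwards, whereas those of *Sh3glb1*, at 132 to 152 FPKM, do not.

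The promoters of *Sh3gl1* and *Sh3glb2* are shown because these members moved together across libraries. Each sequence is a RefSeq window of 300 bases on GRCm38.p6 that ends shortly after a start site, on the minus strand, at chr17:56036610-56036909 for *Sh3gl1* and chr2:30359267-30359566 for *Sh3glb2*. Capitals mark matches, on either strand and without overlap between motifs, to a GC box (GGGCGG), an ETS motif (CCGGAAGT) and a TATA box (TATAAA).
Sh3gl1: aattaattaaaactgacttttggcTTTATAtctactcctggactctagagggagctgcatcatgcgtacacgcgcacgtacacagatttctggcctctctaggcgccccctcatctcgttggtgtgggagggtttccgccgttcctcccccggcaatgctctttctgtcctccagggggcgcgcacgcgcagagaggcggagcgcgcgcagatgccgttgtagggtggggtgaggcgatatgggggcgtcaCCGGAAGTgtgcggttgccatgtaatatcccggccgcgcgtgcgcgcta
Sh3glb2: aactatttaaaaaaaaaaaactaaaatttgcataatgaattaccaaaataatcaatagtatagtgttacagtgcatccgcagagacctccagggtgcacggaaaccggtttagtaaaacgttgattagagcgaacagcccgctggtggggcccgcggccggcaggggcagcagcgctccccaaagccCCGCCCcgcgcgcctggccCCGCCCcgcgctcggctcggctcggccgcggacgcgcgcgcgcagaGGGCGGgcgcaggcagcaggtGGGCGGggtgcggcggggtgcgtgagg
The *Sh3gl1* window holds 1 ETS and 1 TATA match and no GC box, and its GC content is 59.7%. The *Sh3glb2* window holds 4 GC boxes and neither of the others, and its GC content is 62%. Of 32851 promoter windows of the same length, 35.7% hold the GC box letters, 3.89% the ETS letters and 13.6% the TATA letters, and the median GC content is 52.7%. The matches describe the letters only, and these windows share none of the 3 motifs. Of the genes themselves, *Sh3glb2* lies at chr2:30344809-30359337, *Sh3gl1* at chr17:56016750-56036635, *Sh3glb1* at chr3:144683678-144720335, *Sh3gl2* at chr4:85205126-85639195, *Amph* at chr13:18948205-19150921, *Bin3* at chr14:70100105-70138206 and *Bin2* at chr15:100641077-100669553 (GENCODE M21 on GRCm38).

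The summed FPKM of the family, of which *Bin1* itself is a part, was lower in Homo than in WT mice. The FPKM of the 8 members summed to 889 ± 37.0 (SD, n = 5) in WT, 787 ± 56.4 (n = 6) in Het and 717 ± 47.8 (n = 5) in Homo males. In females the sums were 884 ± 32.4 (n = 4), 787 ± 59.0 (n = 5) and 693 ± 16.3 (n = 5). *Bin1* was 29.0% of the sum in WT males, 15.0% in Het and 6.92% in Homo males, and 28.6%, 16.7% and 5.94% in females. Without the libraries Het-F-0206 and Het-M-0199, the Het shares were 16.6% in males and 19.4% in females.

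The other 7 members together showed no rise of a similar size. They summed to 631 ± 31.4 FPKM in WT males and 667 ± 42.9 FPKM in Homo males, and to 631 ± 28.5 and 652 ± 14.9 FPKM in females. After scaling between libraries, these sums were 640 ± 50.3 and 638 ± 39.2 in males and 642 ± 31.3 and 662 ± 21.6 in females. The mean difference was thus smaller than the SD within groups on the scaled values in both sexes, whereas mean *Bin1* fell by 209 FPKM in males and fell by 212 FPKM in females. The ratio of *Bin2* to *Bin1* within a library, which no scaling alters, went from 1.17 to 1.65 in WT males to 6.56 to 8.99 in Homo males, and from 1.37 to 1.65 to 8.72 to 10.4 in females.

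**Figure D4:**
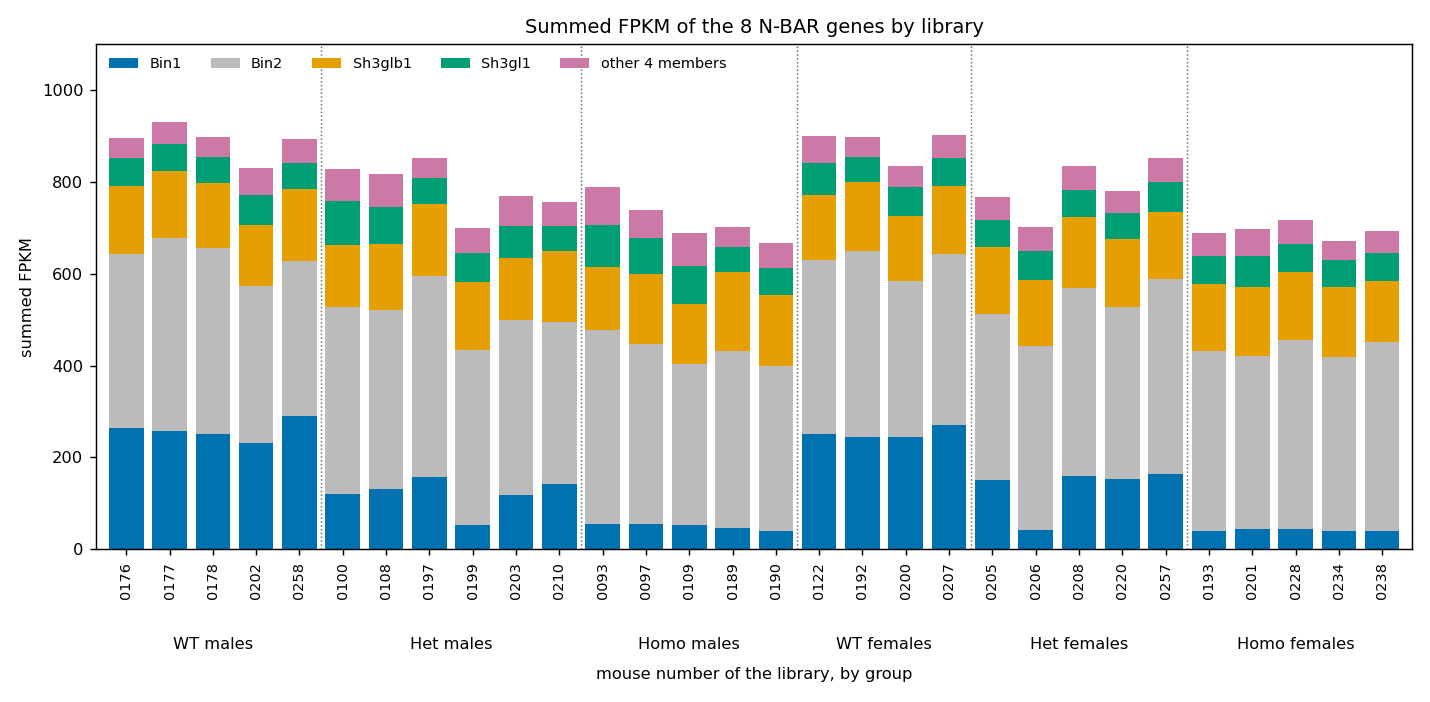
Summed FPKM of the 8 N-BAR genes in each library, stacked by gene, with libraries ordered by group and named by mouse number. The *Bin1* segment shrinks from 230.3 to 290 FPKM in WT to 39.5 to 55.6 FPKM in Homo libraries and the segments above it sum to a mean of 631 FPKM in WT and 652 to 667 FPKM in Homo groups.

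The order of the members changed with genotype for *Bin1*, and between *Bin3* and *Sh3glb2*, whose ranges overlapped in every genotype. In Homo libraries *Bin1*, at a median of 43.2 FPKM, came after *Bin2* (389 FPKM), *Sh3glb1* (148 FPKM) and *Sh3gl1* (60.9 FPKM), and was below *Sh3gl1* in 10 of 10 libraries, with ranges that overlapped as deposited but not after scaling. It remained above *Bin3* (26.9 FPKM) in 10 of 10. In Het libraries *Sh3glb1* (148 FPKM) and *Bin1* (142 FPKM) could not be ordered, *Sh3glb1* being higher in 7 of 11, and without Het-F-0206 and Het-M-0199 in 5 of 9, where the medians were 148 and 152 FPKM.

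Genes beyond the family were compared with each member by Pearson's r of scaled log2 values over the 30 libraries, among 11621 genes with a mean of at least 1 FPKM. The values describe likeness over libraries that share composition and depth, and differences by genotype, sex and number range were left in. The genes most like *Bin1* were *Dennd5a* (0.70), *Siah2* (0.66), *Ctdsp2* (0.66), *Mief1* (0.66) and *Tmem176a* (0.63). The pair nearest to *Sh3glb1* was *Marcks* (0.94), a membrane-bound actin regulator, and *Adgre1* (0.91), which encodes the macrophage antigen F4/80. *Mcoln1* (0.88), a lysosomal calcium channel, and *Tcf25* (0.88) were nearest to *Sh3glb2*, and *Slc25a45* (0.89) and an unnamed gene (0.89) to *Sh3gl1*. *Bin2* was most like *Emc1* (0.84), *Bin3* most like *Sft2d1* (0.81), and *Sh3gl2* most like *Ndrg4* (0.64).

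The wider BAR family and the partners that N-BAR proteins recruit were taken as lists. Of 61 genes with other BAR domains, 58 were tested, and limma called 0 higher and 0 lower in Homo males and in Homo females, where 1.81% and 0.071% of all genes were called. Their median log2 change was 0.01 in males and -0.01 in females, against 0.03 and 0.001 over all genes tested. Of 20 partners, such as dynamins, synaptojanins and clathrin adaptors, 19 were tested and 0 were called, with a median of -0.17 in males and -0.02 in females. Over the 77 genes of both lists, 14 had an unadjusted p below 0.05 in Homo males and 0 in Homo females, against 3798 (22.5%) and 589 (3.49%) of the 16897 genes tested.

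Among list genes with a mean of at least 1 FPKM, those with the largest changes in males were *Appl2*, *Ap2s1* and *Pacsin1* (n = 5 and 5 for each). *Appl2*, an endosomal adaptor, had 48.7 ± 7.72 FPKM in WT and 78.0 ± 28.5 FPKM in Homo males (limma, adjusted p = 0.0833). *Ap2s1*, a subunit of the AP2 clathrin adaptor, had 42.4 ± 11.6 and 31.5 ± 9.64 FPKM (adjusted p = 0.10). *Pacsin1*, a neuronal F-BAR protein, had 2.60 ± 0.545 and 1.91 ± 0.619 FPKM (adjusted p = 0.216). With the same cut, those in females were *Pacsin1* again, *Itsn1* and *Baiap2l1*, each with an adjusted p of 1. *Pacsin1* here had the higher mean in Homo (1.97 ± 0.386 and 3.01 ± 0.996 FPKM). *Itsn1*, an endocytic scaffold, had 1.56 ± 0.580 and 1.06 ± 0.276 FPKM, and *Baiap2l1*, an I-BAR protein, had 1.17 ± 0.342 and 1.56 ± 0.250 FPKM. Singled out after their values were seen, *Ap2m1* and *Fcho2* passed on p by limma in Homo males but not on fold. *Ap2m1*, another AP2 subunit, had a log2 change of -0.28 ± 0.07 (adjusted p = 0.0288). *Fcho2*, which starts clathrin pits, had 0.34 ± 0.10 (adjusted p = 0.0492). All values of the list genes are from the fit without the number range, where 3 of 5 Homo males and no WT male were early. The part of the number range in these values was not tested.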

How the data were processed

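The authors sequenced RNA of sorted microglia (SMARTer v4 cDNA, Nextera XT libraries, HiSeq), mapped it to mm10 by OSA4, quantified genes of an Ensembl model with RSEM, and deposited linear FPKM. Their DESeq2 test ran on counts, which were not analysed here. Another 6 columns of the table match no listed sample and were not used. The paper states that 6 samples were left out for poor unique mapping and high duplication. Whether these are the same 6 was not tested.

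Libraries were scaled by median of ratios (11436 genes, mean FPKM at least 1, never 0). After adding 0.1, log2 values of 16897 genes (mean FPKM at least 0.1) were fitted in limma 3.58.1 (R 4.3.3) with 6 groups and an intensity trend. This scale understates the change of low genes. Adjustment was by Benjamini-Hochberg over all genes, and the thresholds of the study (adjusted p 0.05, 1.5-fold) were kept. The members were also compared in 32 exact permutation tests, 2-sided (scipy 1.17.1). P-values measure the spread between libraries, each labelled with a mouse of its own.

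The members and gene lists were chosen with earlier results of these data known. Beside the members, *Sh3gl3* and *Cx3cr1*, genes were named by rule: list genes called against WT, the 3 of each sex with the largest change at a mean FPKM of at least 1, and the genes most like a member (5 for *Bin1*, at most 2 for others). The fit was tested on values simulated with the spread of each gene, with changes put into Homo males. At an adjusted p below 0.05, Homo against WT males recovered 29.9% of the 1.5-fold, 52.2% of the 2-fold and 81.8% of the 4-fold changes. Of the genes left unchanged, 8 also passed. The changed genes were drawn at random from genes of all levels, so these rates need not hold for the members. Alternatives were other pseudocounts, filters and scalings, no trend, array weights, fits of the groups compared or of late mice, the number range as a covariate, and leaving out libraries.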

Additional observations from a re-analysis of the deposited data

Results flagged for a closer look

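Of 48 combinations of member and group, 8 held a library whose gap to its nearest neighbour was large for the range of its group by Dixon's test. For normally distributed values chance gives this in about 1 group of 20. *Amph* and *Sh3gl2* rest on few fragments and need not follow that rate. With *Amph* at 0 in 4 of 5 female Homo libraries, any value above 0 in the last one is flagged. *Bin1* in female Het mice was 42.7 FPKM in Het-F-0206, against 152 to 164 FPKM in the other 4. *Bin3* in male Het mice was 21.4 FPKM in Het-M-0197, against 28.0 to 29.3 FPKM. *Amph* was 0.419 FPKM in Het-M-0108, against 0 to 0.135 FPKM in the other male Het libraries, and 0.282 FPKM in Homo-F-0238, against 0 in the other 4 female Homo libraries. Homo-F-0238 also had the highest *Sh3gl2* of its group (0.719 FPKM, against 0.151 to 0.251 FPKM) and the lowest *Sh3glb1* (133 FPKM, against 146 to 151 FPKM). *Sh3gl2* was 0.962 FPKM in Homo-M-0093, against 0.160 to 0.356 FPKM in the other male Homo libraries. *Sh3gl1* was 67.8 FPKM in Homo-F-0201, against 58.3 to 60.9 FPKM in the other female Homo libraries. Homo-F-0238 and Het-M-0108 were the libraries with the highest neuronal genes, and the part of neuronal RNA in these values was not tested.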

How the results depend on the processing

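*Bin1* was called in Homo against WT of each sex and in the mean of both under every alternative and with each library left out (between -2.64 and -2.38 on the log2 scale), and no other member was called in any genotype contrast under any of them. The calls of *Bin1* in Het mice moved: 0 members were called in Het against WT males with no filter on low genes, with array weights, with late mice alone and with the groups compared only, and 1 in Het against WT females with array weights and without Het-F-0206 and Het-M-0199. Homo against Het gave 1 call in males without these 2 libraries, and 0 in females with no filter, no trend, late mice alone and the groups compared only. With 1 library left out, the number of members called was 0 to 1 in Het against WT males (0 without Het-M-0100, Het-M-0203, WT-M-0176, WT-M-0177 or WT-M-0178), 0 to 1 in Homo against Het males (1 without Het-M-0199) and 0 to 1 in Homo against Het females (1 without Het-F-0206). Except for the smaller sets of libraries, the cause was not tested.

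Members near 0 changed sign, none of them called. In Homo against WT males these were *Bin2* (0.017 without scaling, 0.0066 by quantile normalization), *Sh3glb1* (0.044 without scaling, 0.11 with the number range as a covariate, 0.18 in late mice), *Sh3gl2* (-0.076 with array weights), *Sh3gl1* (-0.027 with the covariate, -0.095 in late mice) and *Sh3glb2* (-0.023 and -0.060). In females *Sh3gl1* was 0.0025 without scaling, 0.090 with the covariate and 0.038 in late mice, and *Sh3glb2* 0.065 and 0.056 in the last 2. In the mean of both sexes *Bin2* was -0.0011 with array weights, *Sh3gl1* -0.028 and *Sh3glb2* -0.0017 in late mice, and *Sh3glb1* 0.020 without scaling, 0.021 with the covariate and 0.074 in late mice. The difference between the sexes was -0.12 with the covariate and -0.13 in late mice for *Sh3gl1*, and -0.088 and -0.12 for *Sh3glb2*.

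With 1 library left out, ranges that crossed 0 were -0.0038 to 0.63 for *Sh3gl2* and -0.12 to 0.027 for *Sh3glb1* in males, and -0.054 to 0.040 for *Sh3gl1*, -0.0066 to 0.54 for *Sh3gl2*, -0.031 to 0.022 for *Sh3glb1* and -0.16 to 0.058 for *Sh3glb2* in females. In the mean of both sexes they were -0.018 to 0.033 for *Bin2* and -0.062 to 0.0092 for *Sh3glb1*, and between WT females and males -0.070 to 0.011 for *Bin1*. The summed FPKM of the family in Het mice moved by less than its SD without the 2 libraries, and the 4 exact tests below 0.05 stayed 4 on scaled FPKM. No paired analysis was possible because each mouse number occurs once. Depth limits *Amph* and *Sh3gl2*, which rest on few fragments, and absolute depth is unknown.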
